A study of Mus musculus with 18 samples.

Results

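This account follows 10 genes of the epithelial-mesenchymal transition (EMT) through mouse mammary tumors: the transcription factor genes Snai1, Snai2, Twist1, Twist2, Zeb1, Zeb2 and Prrx1, their epithelial opponents Ovol1 and Ovol2, and Vim, which encodes vimentin. The genes were picked by name, and each name matched 1 row of the 55450 genes in the RNA-seq count table. The table holds 18 libraries, 1 from each of 18 female C57Bl/6 mice. There were 5 tumors with the genotype Brca1fl/fl/Trp53fl/fl/TgK18GT121Tg/+ (B1/P/Rbf), 5 with Brca1fl/fl/Trp53fl/fl (B1/P), 5 with Trp53fl/fl/TgK18GT121Tg/+ (P/Rbf) and 3 normal mammary glands of wild type mice. Tumors arose after an adenovirus that expresses Cre recombinase from the CMV promoter was injected into the mammary duct of adult females. All 3 tumor groups therefore shared the Trp53 deletion. T121 is a fragment of the SV40 large T antigen that inactivates the pRb family (Rbf), and here it was expressed from the keratin 18 promoter after Cre had acted. The promoter that drove Cre was not specific to a cell type, whereas T121 could be made only in cells in which the keratin 18 promoter was active. Age at collection is not given in the sources used here.

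In EMT, epithelial cells loosen their junctions and take on features of mesenchymal cells. The SNAI and ZEB proteins are zinc finger repressors that bind E-box sequences in the promoters of epithelial genes, TWIST proteins are basic helix-loop-helix factors, and PRRX1 is a homeobox factor of mesenchyme. OVOL1 and OVOL2 are zinc finger factors of epithelia that repress Zeb1 and other EMT genes. Vimentin is the type III intermediate filament of mesenchymal cells and is widely used as the readout of EMT. In the mammary gland, Snai2 also belongs to the program of basal and myoepithelial cells, while fibroblasts, endothelial cells and macrophages of the stroma express Vim, Zeb1 and Zeb2.

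The libraries held 27661173 to 37794889 counts, with a median of 33802254. Brca1 RNA was at 8.13 to 27.9 CPM, the count of a gene scaled to the TMM-adjusted total of its library, in B1/P tumors, 21.1 to 45 CPM in B1/P/Rbf, 44.9 to 116 CPM in P/Rbf and 4.61 to 5.99 CPM in normal glands. Trp53 RNA was at 6.75 to 24.3 CPM over all tumors against 54.4 to 71.8 CPM in normal glands. The normal glands were whole tissue, with 7 adipocyte markers summing to 10400 to 14400 CPM (15.5 to 218 CPM in tumors), 8 lymphocyte markers to 382 to 529 CPM (2.26 to 36.2) and 6 skeletal muscle markers to 22100 to 43500 CPM (2.04 to 585). Each library came from another mouse, so p-values measure the spread between mice. The counts are per gene and do not show which exons of Brca1 and Trp53 hold the reads, so these levels do not check the deletions. RT-qPCR on these tumors had shown only partial loss of Brca1 expression in B1/P/Rbf replicate 3. Without that library 3 of the 10 genes were called in B1/P/Rbf against B1/P (4 with it, the difference being Prrx1), 8 against normal glands (8 with it) and none against P/Rbf (none with it). Over all genes tested, 2483 (3195 with it), 6387 (7108) and 69 (54) were called, in the same order. In bulk tissue, fewer cells of a type and less RNA per cell cannot be told apart.

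Differences were called at an adjusted p of 0.05 or less in edgeR's quasi-likelihood fit over all 18 libraries and 19186 genes, and all 10 genes passed its filter on low counts. Against B1/P, 4 of the 10 were lower in B1/P/Rbf (Snai2, Twist1, Prrx1 and Vim) and none was higher, where 9.29% of all genes tested were called lower and 7.36% higher. In P/Rbf, 4 of the 10 were lower than in B1/P (Snai2, Twist1, Zeb2 and Vim) and none was higher, against 10.8% and 8.43% of all genes. The median log2 fold change of the 10 genes was -1.14 in B1/P/Rbf and -0.85 in P/Rbf, against -0.06 and -0.05 over all genes tested. These comparisons share the B1/P tumors as their reference, so they are given side by side and are not independent of each other.

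**Figure D1:**
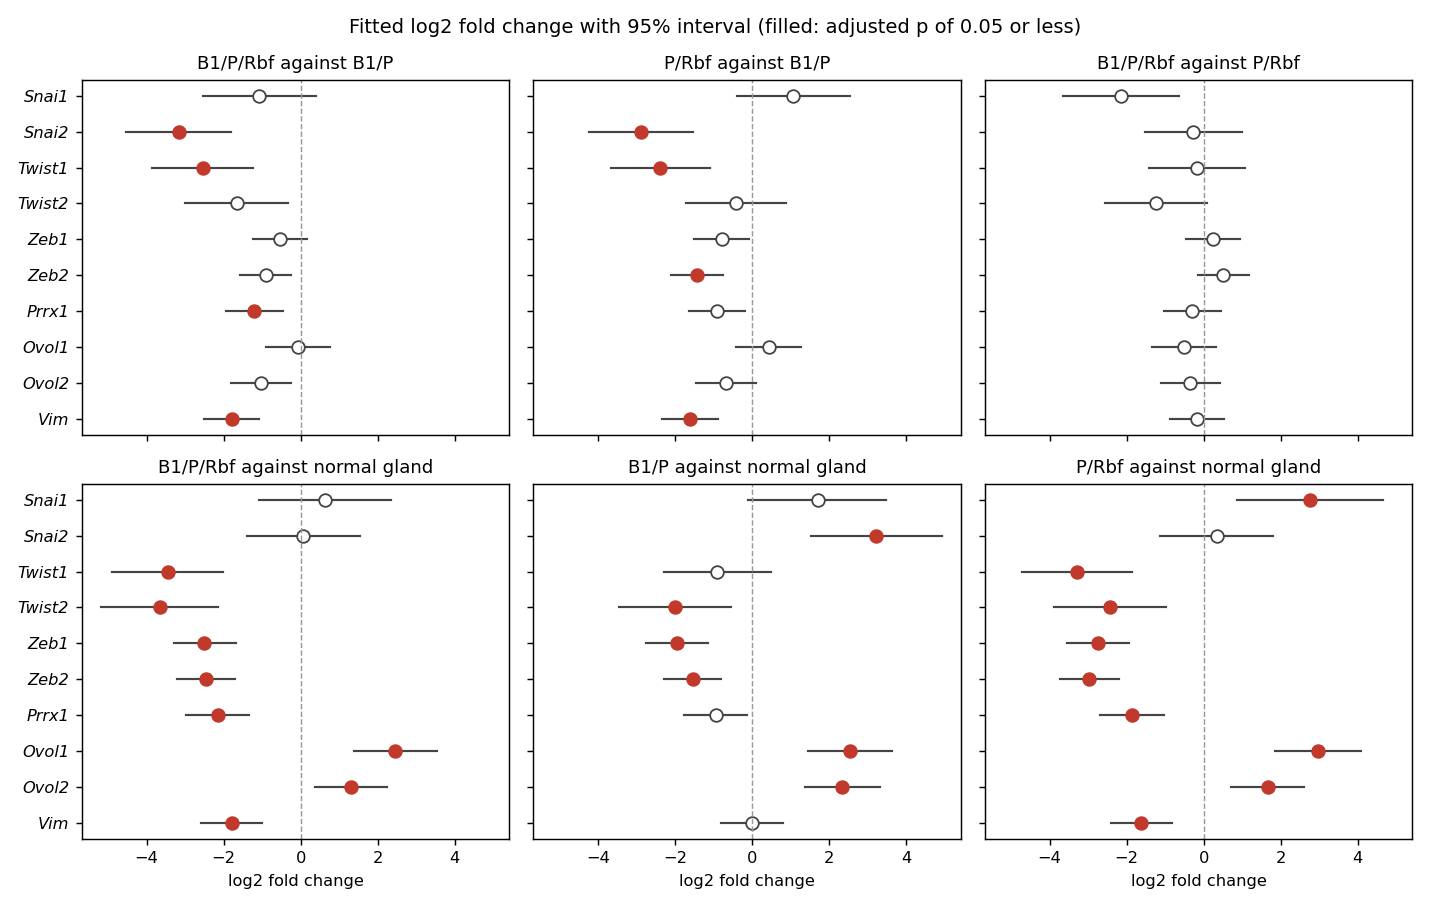
Fitted log2 fold change of each gene (horizontal axis) in the 6 comparisons of the groups, with 95% intervals as lines and filled points where the adjusted p was 0.05 or less. Snai2, Twist1 and Vim lie below 0 and are filled in both comparisons of tumors with T121 against B1/P, and no point is filled between B1/P/Rbf and P/Rbf.

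Against normal glands, 6 of the 10 were lower and 2 higher in B1/P/Rbf, where 20.0% of all genes were called lower and 17.1% higher. In B1/P 3 were lower and 3 higher, against 16.9% and 16.8% of all genes. In P/Rbf 6 were lower and 3 higher, against 20.3% and 17.4%. These shares depend on the scaling, since without TMM the genes called higher and lower against normal glands numbered 5122 and 2887 for B1/P/Rbf (3273 and 3835 with it), 5126 and 2440 for B1/P (3232 and 3249) and 4720 and 3159 for P/Rbf (3333 and 3897). Ovol1 and Ovol2, the epithelial factors, were higher than in normal glands in all 3 tumor groups, and Twist2, Zeb1 and Zeb2 were lower in all 3. Vim, Twist1 and Prrx1 were called lower than in normal glands in the tumors with T121 and not in B1/P.

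Vim (ENSMUSG00000026728.9, chr2:13573927-13582826, + strand; positions here and below are those of GENCODE on GRCm38) was the most abundant of the 10 genes per length in every group, at 197 CPM per kilobase of its principal transcript in B1/P and in normal glands, 64.4 in P/Rbf and 57.1 in B1/P/Rbf (means). The 5 B1/P tumors were at 400, 703, 293, 470 and 298 CPM. The 5 B1/P/Rbf tumors were at 231, 93.6, 82.1, 108 and 112 CPM, and the 5 P/Rbf tumors at 81.7, 236, 129, 163 and 96.5 CPM. Every tumor with T121 lay below every B1/P tumor, and the normal glands, at 430, 396 and 472 CPM, lay inside the B1/P range. The log2 fold change was -1.79 (SE 0.34, adjusted p = 0.00254) in B1/P/Rbf and -1.62 (SE 0.34, adjusted p = 0.0044) in P/Rbf, or 3.46-fold and 3.07-fold lower than in B1/P. Between B1/P and normal glands it was 0.00 with a 95% interval from -0.81 to 0.81. For the protein, the study reported vimentin staining in B1/P tumors by immunohistochemistry. In B1/P/Rbf it described tumor cells without vimentin inside strongly stained stroma, and it classed P/Rbf tumors as vimentin negative. Those stains were not matched to these libraries.

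**Figure D2:**
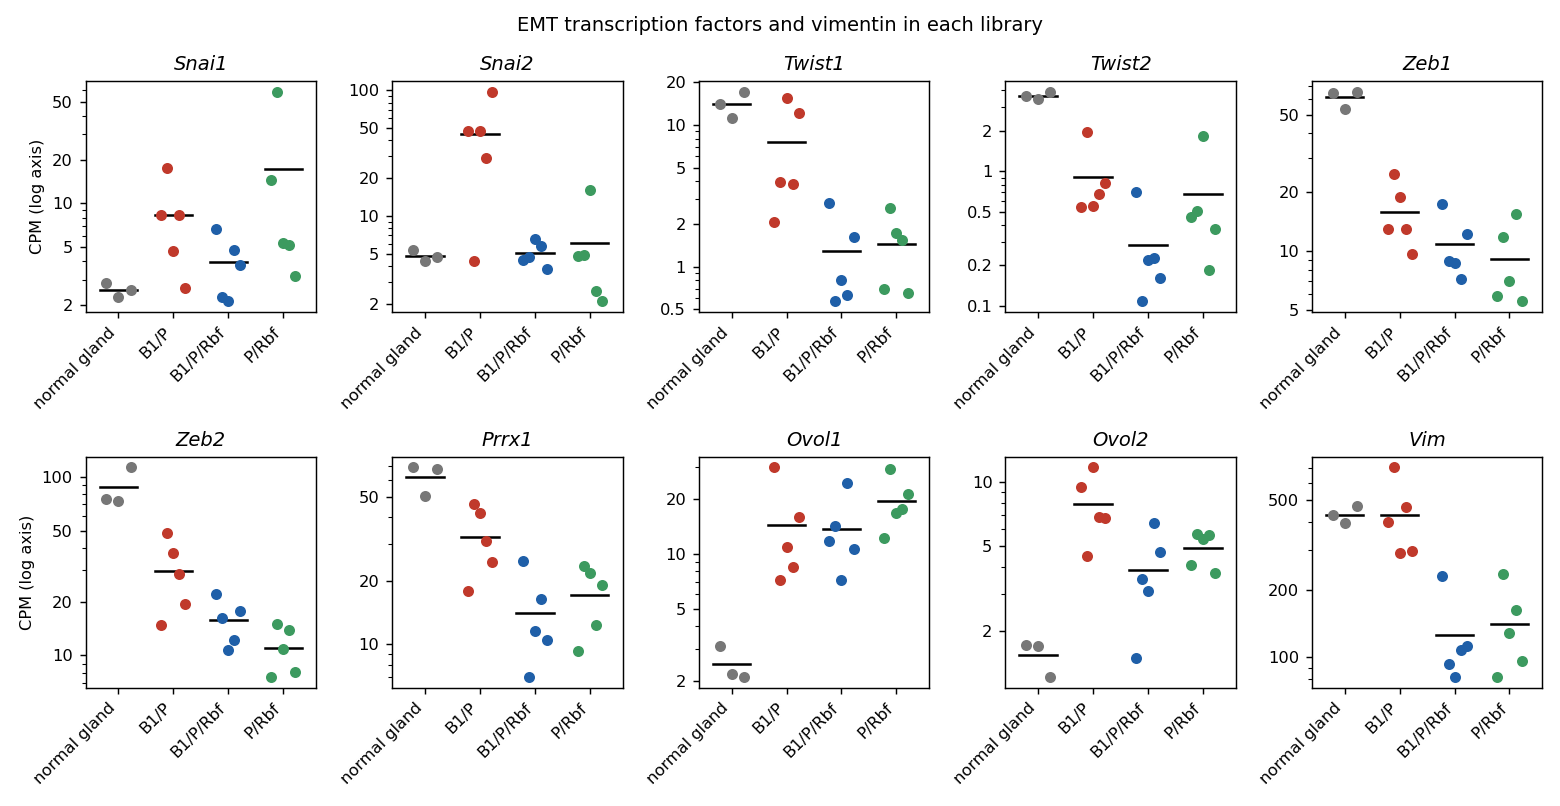
Level of each of the 10 genes (vertical log axis, CPM) in every library, by group on the horizontal axis, with 1 point per mouse and a line at the group mean. Vim separates the B1/P tumors from all 10 tumors with T121, while Snai2 is high in 4 of the 5 B1/P tumors and Zeb1 and Zeb2 are highest in the normal glands.

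The SNAI genes parted from each other. Snai2, which encodes SLUG (ENSMUSG00000022676.7, chr16:14705852-14709385, + strand), was at 47.7, 4.41, 47.4, 28.9 and 98 CPM in the B1/P tumors and at 3.8 to 6.53 CPM in B1/P/Rbf. In P/Rbf it was at 4.75, 4.89, 16.2, 2.53 and 2.08 CPM, and in normal glands at 4.38 to 5.35 CPM. B1/P replicate 2, at 4.41 CPM, lay among the tumors with T121 and the normal glands, so the groups overlapped through that tumor alone in the comparison with normal glands. Snai2 fell by 3.16 on the log2 scale in B1/P/Rbf (SE 0.65, adjusted p = 0.00371) and by 2.89 in P/Rbf (SE 0.64, adjusted p = 0.00574) relative to B1/P. Without P/Rbf replicate 3 the P/Rbf value was -3.67. It was 9.4-fold higher in B1/P than in normal glands (log2 fold change 3.23, SE 0.8, adjusted p = 0.00521).

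Snai1, which encodes SNAIL (ENSMUSG00000042821.7, chr2:167538195-167542814, + strand), was not called between tumor groups. It was at 8.33, 17.4, 4.7, 8.31 and 2.62 CPM in B1/P, 2.26 to 2.85 CPM in normal glands and 2.12 to 6.64 CPM in B1/P/Rbf. In P/Rbf it was at 14.5, 58.8, 5.31, 5.16 and 3.17 CPM, so that replicate 2 alone accounts for most of the group mean of 17.4 ± 23.6 CPM (SD, n = 5). Snai1 was called only in P/Rbf against normal glands (log2 fold change 2.77, SE 0.9, adjusted p = 0.0226). Without P/Rbf replicate 2 that value was 1.46 and was no longer called (adjusted p = 0.0844), and leaving out any of the normal glands also ended the call (adjusted p = 0.0654 to 0.0751).

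Twist1 (ENSMUSG00000035799.6, chr12:33957671-33959829, + strand) was at 2.07, 3.94, 15.6, 3.84 and 12.2 CPM in B1/P, at 2.81, 0.567, 0.8, 0.634 and 1.62 CPM in B1/P/Rbf, and at 0.69, 2.59, 1.72, 1.55 and 0.647 CPM in P/Rbf. The normal glands were at 14.1, 11.1 and 17.2 CPM. The B1/P tumors were thus spread from the upper end of the tumors with T121 to the level of the normal glands. Twist1 was 5.85-fold lower in B1/P/Rbf when set against B1/P (log2 fold change -2.55, SE 0.62, adjusted p = 0.0106) and 5.22-fold lower in P/Rbf (-2.39, SE 0.62, adjusted p = 0.0135). Against normal glands it was 11-fold lower in B1/P/Rbf and 9.78-fold lower in P/Rbf (adjusted p = 0.000839 and 0.00115), whereas in B1/P the log2 fold change was -0.91 with an interval that included 0 (SE 0.66, adjusted p = 0.305). The B1/P/Rbf call against normal glands was lost with a term for 2 library sets (all B1/P/Rbf and B1/P replicates 1 to 3 against the rest), inferred from earlier work on these data and given by no label (adjusted p = 0.0553).

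Twist2, its close relative (ENSMUSG00000007805.4, chr1:91801461-91848028, + strand), was the lowest of the 10 genes per length in the tumors. It was at 0.108 to 0.709 CPM in B1/P/Rbf, which is 4 to 25 counts per library, at 0.54 to 1.95 CPM in B1/P and at 0.184 to 1.85 CPM in P/Rbf, against 3.63, 3.44 and 3.93 CPM in normal glands. Every tumor lay below every normal gland. The log2 fold change against normal glands was -3.66 (SE 0.72, adjusted p = 0.000792) in B1/P/Rbf, -2.01 (SE 0.69, adjusted p = 0.0325) in B1/P and -2.43 (SE 0.69, adjusted p = 0.011) in P/Rbf. The B1/P call was lost without any 1 of 4 B1/P tumors or any 1 of the normal glands, with adjusted p up to 0.0856, and with the term for library sets (0.0956). The gene Gm29100 shares 1477 exonic bases with Twist2 on the opposite strand. Among the tumor groups no difference of Twist2 was called (adjusted p = 0.083 for B1/P/Rbf and 0.659 for P/Rbf against B1/P). Without B1/P/Rbf replicate 1 the B1/P/Rbf values were -2.31 against B1/P, now called (adjusted p = 0.0244), and -4.32 against normal glands, and without P/Rbf replicate 3 the P/Rbf value against normal glands was -3.26.

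Zeb1 and Zeb2, the zinc finger homeobox repressors, were highest in normal glands. Zeb1 (ENSMUSG00000024238.15, chr18:5591860-5775467, + strand) was at 64.4, 53.6 and 65.6 CPM there, at 9.62 to 24.8 CPM in B1/P, 5.51 to 15.5 CPM in P/Rbf and 7.15 to 17.4 CPM in B1/P/Rbf. Zeb2 (ENSMUSG00000026872.17, chr2:44983632-45117395, - strand) was at 75.2, 73.5 and 113 CPM in normal glands, at 14.8, 48.6, 37.6, 28.7 and 19.5 CPM in B1/P, at 22.2, 16.2, 10.7, 12.2 and 17.8 CPM in B1/P/Rbf and at 7.56, 15, 10.9, 13.8 and 8.07 CPM in P/Rbf. No tumor reached the level of a normal gland for either gene. Zeb1 fell by 1.95 to 2.74 and Zeb2 by 1.55 to 2.97 on the log2 scale across the 3 tumor groups, with adjusted p of 0.00298 or smaller. Endothelial markers, 8 of 8 detected, summed to 476 to 542 CPM in normal glands and 92.6 to 405 CPM in tumors, and lymphocyte markers differed in the same direction, as given above. Macrophage markers summed to 512 to 663 CPM in normal glands and 308 to 3400 CPM in tumors. Of the 9, 6 were called higher in B1/P, 2 in B1/P/Rbf and 1 in P/Rbf, where 16.8%, 17.1% and 17.4% of all genes were, and none was called lower. In P/Rbf the values of 3 of them, Mrc1 (-1.63), Aif1 (-0.58) and Lyz2 (-0.41), were below 0. The part of these cells in the Zeb1 and Zeb2 differences was not tested.

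Between tumor groups the ZEB genes differed less. Zeb2 was 2.69-fold lower in P/Rbf than in B1/P (log2 fold change -1.43, SE 0.32, adjusted p = 0.00625), with replicate 1 of B1/P inside the P/Rbf range. The call was lost with the term for library sets (adjusted p = 0.0789). In B1/P/Rbf its log2 fold change was -0.91 (SE 0.32, adjusted p = 0.0563), just outside the threshold. Zeb1 had log2 fold changes of -0.55 (95% interval -1.25 to 0.16) in B1/P/Rbf and -0.79 (-1.5 to -0.08) in P/Rbf, with adjusted p of 0.284 and 0.106. The gene Zeb2os lies on the opposite strand and shares 653 exonic bases with Zeb2, and Gm10125 shares 198 with Zeb1. Whether counting used the strand is not given in the sources used here, so reads in these stretches may belong to either gene.

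Prrx1 (ENSMUSG00000026586.16, chr1:163245119-163313710, - strand) was at 17.9, 46.4, 42, 30.8 and 24.6 CPM in B1/P, at 24.8, 6.99, 11.6, 16.4 and 10.5 CPM in B1/P/Rbf, at 9.35, 23.6, 21.7, 12.3 and 19.2 CPM in P/Rbf and at 69.2, 50.5 and 67.8 CPM in normal glands. It lay below the normal glands in all 15 tumors. It was called lower in B1/P/Rbf when set against B1/P (log2 fold change -1.2, SE 0.35, adjusted p = 0.0264), and the value in P/Rbf was -0.91 (SE 0.35, adjusted p = 0.074). The B1/P/Rbf call did not hold without replicate 2, 3 or 5 of B1/P/Rbf or replicate 2 or 3 of B1/P, with adjusted p up to 0.0641. Against normal glands Prrx1 fell by 2.15 in B1/P/Rbf and by 1.86 in P/Rbf on the log2 scale (adjusted p = 0.000415 and 0.0013), and the value in B1/P was -0.95 (adjusted p = 0.07).

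The 2 epithelial factors went the other way relative to normal glands. Ovol1 (ENSMUSG00000024922.2, chr19:5549136-5560646, - strand) was at 3.13, 2.19 and 2.1 CPM in normal glands, at 29.8, 7.17, 10.9, 8.43 and 15.8 CPM in B1/P, at 11.8, 14.2, 7.14, 24.3 and 10.6 CPM in B1/P/Rbf and at 12.2, 29.3, 16.7, 17.6 and 21.2 CPM in P/Rbf. It was above every normal gland in all 15 tumors, by 5.82-fold in B1/P, 5.51-fold in B1/P/Rbf and 7.84-fold in P/Rbf (adjusted p = 0.0012, 0.00126 and 0.000317), and the B1/P/Rbf call was lost with the term for library sets (adjusted p = 0.0607). Ovol2 (ENSMUSG00000037279.13, chr2:144305175-144332146, - strand) was at 1.72, 1.7 and 1.22 CPM in normal glands, 4.5 to 11.7 CPM in B1/P, 3.74 to 5.71 CPM in P/Rbf and 1.5 to 6.42 CPM in B1/P/Rbf. Its rise was 5.07-fold in B1/P, 3.17-fold in P/Rbf and 2.49-fold in B1/P/Rbf (adjusted p = 0.00107, 0.00811 and 0.0281). The B1/P/Rbf call of Ovol2 was lost without replicate 4 or 5 of that group or any of the normal glands (adjusted p up to 0.116), and with the term for library sets (0.326). The summed CPM of 6 luminal epithelial markers was 1420 to 1820 in normal glands, 4030 to 8460 in P/Rbf, 2580 to 5070 in B1/P/Rbf and 738 to 2350 in B1/P. Of 26 epithelial targets, 21 were called higher and none lower in B1/P/Rbf against normal glands, where 17.1% and 20.0% of all genes were. The part of epithelial cells in the OVOL differences was not tested.

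Neither OVOL gene was called between tumor groups. Relative to B1/P, the log2 fold change of Ovol1 was -0.08 (95% interval -0.91 to 0.75) in B1/P/Rbf and 0.43 (-0.41 to 1.26) in P/Rbf. That of Ovol2 was -1.03 (-1.8 to -0.25, adjusted p = 0.0638) in B1/P/Rbf and -0.68 (-1.45 to 0.09, adjusted p = 0.196) in P/Rbf. The log2 CPM of Zeb1 minus that of Ovol1, taken within each library, was 4.34 to 4.93 in the normal glands and -1.93 to 1.78 over the tumors, so these ranges did not overlap. This difference holds a constant for the lengths of the genes, so only its change between libraries can be read. On the other strand Gm31166 and AC126029.1 share 690 and 76 exonic bases with Ovol1, and 1700108N11Rik shares 359 with Ovol2, with the same limit as for Zeb2.

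Between B1/P/Rbf and P/Rbf, the groups that differ by the Brca1 alleles (with partial loss in B1/P/Rbf replicate 3, as given above), none of the 10 genes was called, where 0.219% of all genes were called higher and 0.0625% lower (42 and 12 genes, against 590 and 433 with DESeq2). Before adjustment 1 of the 10 passed 0.05, Snai1, with a log2 fold change of -2.14 (SE 0.71, adjusted p = 0.153 in edgeR), while 3083 of the 19186 genes passed in this way. DESeq2 called Snai1 (adjusted p = 0.0318) and limma-voom called none. Without P/Rbf replicate 2, which held 58.8 CPM, the value of Snai1 was -0.84 (adjusted p = 0.509). For Vim the interval of the log2 difference was -0.87 to 0.52, and for Snai2 it was -1.53 to 0.99, so differences of that size are not excluded. All B1/P/Rbf libraries fell in 1 of the 2 inferred library sets and all P/Rbf libraries in the other. Between these groups, genotype and set therefore cannot be told apart, and the same holds for B1/P/Rbf against normal glands. With the set term, fitted through the B1/P tumors in both sets, 3 genes were called higher and 2 lower, none of them among the 10.

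Per kilobase of the principal transcript, the order of the group means differed between groups. In B1/P, Vim (197 CPM per kilobase) was followed by Snai2 (22.4), Prrx1 (6.53), Snai1 and Ovol2 (5.11 each), Ovol1 (4.85), Twist1 (4.63), Zeb2 (3.27), Zeb1 (2.73) and Twist2 (0.36). From Snai2 down to Zeb1 the ranges of the 5 tumors overlapped from each gene to the next, while Vim and Twist2 stood apart. In B1/P/Rbf, Ovol1 (4.59) and Prrx1 (2.84) came after Vim, and Twist1 (0.79) and Twist2 (0.113) came last. In P/Rbf the second place of Snai1 (10.7 ± 14.5 CPM per kilobase, SD, n = 5) rested on replicate 2, and Ovol1 (6.53) came next. In normal glands Prrx1 (12.6), Zeb1 (10.6), Zeb2 (9.55) and Twist1 (8.67) followed Vim, each overlapping the next, and Ovol2 (1) and Ovol1 (0.832) came last. These ranks depend on the length used. Per kilobase of all exons, Twist1 (8.67) came before Zeb1 (5.96), Prrx1 (5.65) and Zeb2 (4.37) in normal glands, and Prrx1 was at 2.92 in B1/P and at 1.27 in B1/P/Rbf, in both below Snai2, Snai1 and Ovol2.

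Markers of other cells were read beside these genes. Of 9 fibroblast markers (all detected in the tumors), 1 was called lower in B1/P/Rbf and 4 in P/Rbf relative to B1/P, where 9.29% and 10.8% of all genes were, and none was called higher. Their sum was 2500, 12800, 5940, 2920 and 2900 CPM in B1/P, 4750, 825, 2120, 957 and 880 CPM for B1/P/Rbf, 1420, 4000, 2980, 1440 and 1250 CPM in P/Rbf and 1690 to 2970 CPM in normal glands. The mean log2 CPM of the 9 markers, used here as a fibroblast score, was 6.8 ± 0.75 in B1/P, 5.54 ± 1.03 in B1/P/Rbf, 5.38 ± 0.64 in P/Rbf (SD, n = 5 each) and 7.19 ± 0.38 in normal glands (SD, n = 3). In exact two-sided permutation tests the score differed from B1/P by -1.25 in B1/P/Rbf (p = 0.0635, adjusted over 6 comparisons 0.107) and by -1.42 in P/Rbf (p = 0.0159, adjusted 0.0537). Neither passed after adjustment.

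Each gene was therefore also set against the fibroblast score of its own library. On that scale Vim differed from B1/P by -0.56 in B1/P/Rbf (exact permutation p = 0.183) and by -0.22 in P/Rbf (p = 0.508), against -1.79 and -1.62 without it. Prrx1 differed by 0.01 and 0.51, Twist1 by -1.1 and -0.7, Snai2 by -1.37 and -1.32, and Zeb2 by 0.42 and 0.07. Over the 10 genes and 6 comparisons no difference on this scale passed adjustment, with 0.0893 as the smallest adjusted p. It was shared by 12 differences from normal glands, each at 0.0179, the smallest p that exact tests of 5 against 3 can give. Those were of Twist1 (-1.99 in B1/P/Rbf and -1.59 in P/Rbf), Twist2 (-2.01 in B1/P/Rbf and -1.72 in B1/P), Zeb1 and Zeb2 (-1.63 and -1.25 in B1/P), Ovol1 (3.98 in B1/P/Rbf and 4.72 in P/Rbf), Ovol2 (2.63 in B1/P and 3.44 in P/Rbf), and Snai1 and Snai2 (3.68 and 1.74 in P/Rbf). These are measured differences from the mean of 9 markers, which did not all move together. Relative to B1/P, 1 of the 9 was above 0 in each group with T121, Dcn (0.02 in B1/P/Rbf and 0.84 in P/Rbf). In B1/P against normal glands 4 of the 9 were above 0, and the values ran from -3.29 (Dpt) to 2.49 (Col1a1). How far the score follows fibroblasts alone, and the part of fibroblasts in the differences of Vim, was not tested.

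**Figure D3:**
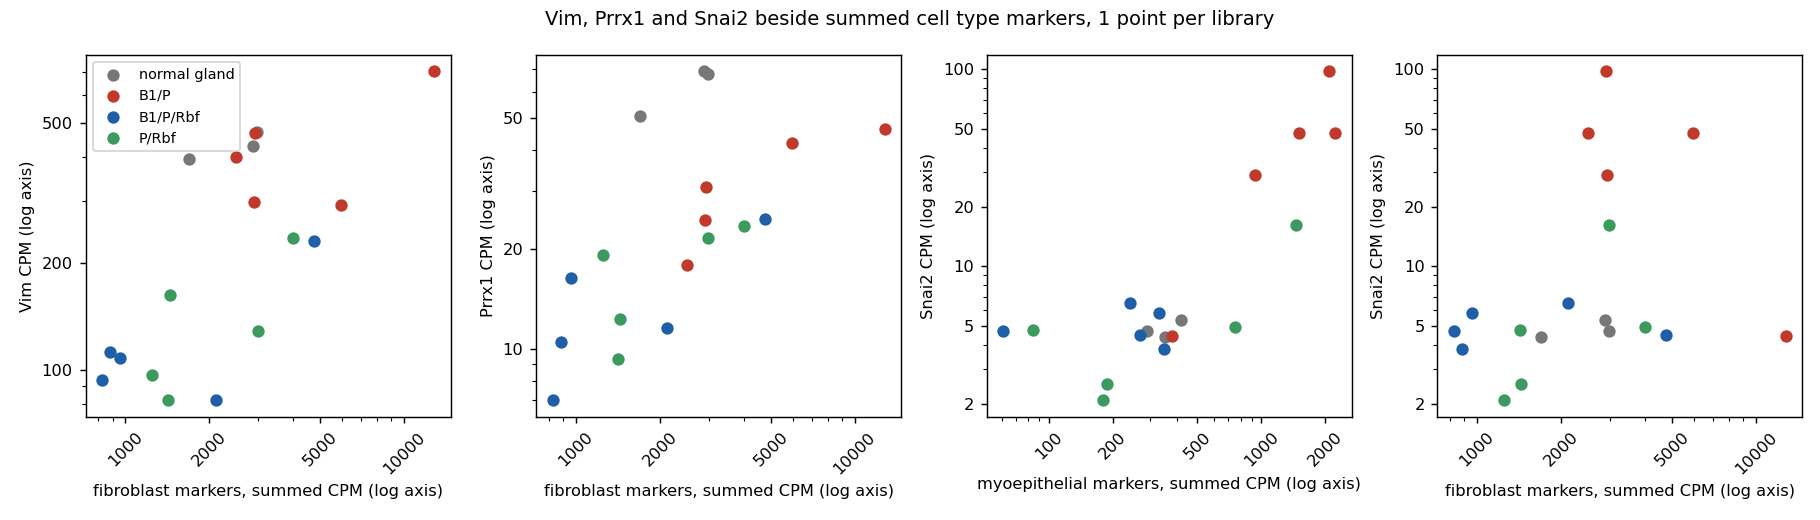
CPM of Vim, Prrx1 and Snai2 (vertical log axes) against the summed CPM of fibroblast or myoepithelial markers (horizontal log axes), with 1 point per library colored by group. B1/P replicate 2 has the highest fibroblast sum (12800 CPM) and the highest Vim of all libraries, and in the panel of myoepithelial markers it lies at 380 CPM with a Snai2 level of 4.41 CPM.

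Within the 10 tumors with T121, the correlation of each gene with the fibroblast score was computed, and none of the 10 passed adjustment. Twist1 had a Pearson r of 0.76 (permutation p = 0.00507, adjusted over 10 genes 0.0507) and a Spearman rho of 0.76 (p = 0.0156, adjusted 0.156), and r was 0.44 without the 2 tumors farthest from the median score. Vim had an r of 0.75 (permutation p = 0.0129, adjusted 0.0645) and a rho of 0.56 (p = 0.0959, adjusted 0.306), and r was 0.11 without those 2 tumors, B1/P/Rbf replicate 1 and P/Rbf replicate 2. The relation of Vim thus rests on these tumors, which held 231 and 236 CPM of Vim, the highest of their groups. Without the same 2 tumors r went the other way for Snai2, from 0.32 to 0.82. Values within each genotype, of 5 tumors, are not reported here.

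Snai2 was also set beside myoepithelial markers, with no test. The 7 myoepithelial markers summed to 1510, 380, 2230, 930 and 2080 CPM in B1/P, and the library at 380 CPM was replicate 2, the 1 B1/P tumor with low Snai2. In P/Rbf they summed to 84.1, 755, 1450, 187 and 180 CPM, and the library at 1450 CPM was replicate 3, which had the highest Snai2 of its group at 16.2 CPM. The other P/Rbf tumors had no such order, since replicate 1, with the lowest sum, held 4.75 CPM of Snai2 and replicate 2, at 755 CPM, held 4.89 CPM. In B1/P/Rbf the sums were 267, 60.9, 240, 328 and 349 CPM, and the highest sum went with the lowest Snai2, 3.8 CPM. In normal glands the sum was 290 to 420 CPM. Of the 7 markers, 2 were called lower in each comparison of tumors with T121 against B1/P, Oxtr and Trp63, where 9.29% (B1/P/Rbf) and 10.8% (P/Rbf) of all genes were. Without B1/P replicate 2 the log2 fold changes of Snai2 were called with smaller adjusted p, 0.000584 in B1/P/Rbf and 0.000906 in P/Rbf. The part of myoepithelial or basal-like cells in the level of Snai2 was not tested.

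Other marker lists were summed in the same way. The 6 luminal epithelial markers summed to 738 to 2350 CPM in B1/P, 4030 to 8460 CPM in P/Rbf, 2580 to 5070 CPM in B1/P/Rbf and 1420 to 1820 CPM in normal glands. The 4 Schwann cell markers summed to 167 to 630 CPM in B1/P against 2.31 to 4.85 CPM in tumors with T121, and most of that sum was Sox10, at a mean of 427 CPM in B1/P and 0.666 CPM in B1/P/Rbf. Macrophage markers, 9 of 9 detected, summed to 471, 3400, 1420, 679 and 579 CPM in B1/P. Replicates 2 and 3 of B1/P lay above every tumor with T121. The median was 679 CPM in B1/P, 626 CPM (328 to 1040) in P/Rbf and 670 CPM (308 to 1010) in B1/P/Rbf. None of the 9 was called in B1/P/Rbf and 1, lower, in P/Rbf against B1/P. Their median log2 fold change was -0.6 in B1/P/Rbf and -0.98 in P/Rbf, and none was above 0 in either. The 7 pericyte and smooth muscle markers, all detected, summed to 830, 477, 855, 490 and 541 CPM in B1/P, 581, 193, 370, 494 and 329 CPM for B1/P/Rbf, 203, 418, 239, 246 and 321 CPM in P/Rbf and 464 to 597 CPM in normal glands. Every P/Rbf tumor thus lay below every B1/P tumor, while B1/P/Rbf overlapped B1/P. Of these 7, 3 were called lower in B1/P/Rbf (Pdgfrb, Kcnj8 and Abcc9) and 5 in P/Rbf (these with Cspg4 and Rgs5) against B1/P, where 9.29% and 10.8% of all genes were, and none was called higher. Their part in the differences of Vim, Prrx1 and Zeb2 was not tested.

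Profiles were compared across the 18 libraries. Likeness was taken as the root mean square (RMS) difference between centred log2 CPM values, so that 0 is the same profile. Zeb1 and Zeb2 were the nearest pair of the 10 (0.34), followed by Prrx1 and Vim (0.56) and Zeb2 and Prrx1 (0.59). The paralogs Twist1 and Twist2 were farther apart (1.11), and Snai1 and Snai2 farther still (1.98). The most distant pair was Twist1 and Ovol1 (2.49). Ovol1 and Ovol2 lay at 0.79. All of these values share the contrast of normal glands with tumors.

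Among all genes tested, the 3 nearest to Zeb1 were Parvb (0.22), Ptprm (0.26) and Fli1 (0.27), and those nearest to Zeb2 were Rftn1 (0.3), Zeb1 itself (0.34) and the overlapping Zeb2os (0.37). Prrx1 was nearest to Thy1 (0.31), Tfpi (0.36) and Hic1 (0.37), of which Thy1 is 1 of the 9 fibroblast markers used above. Vim was nearest to Grk5 (0.31), Fkbp9 (0.35) and Nacc2 (0.41). The neighbours of Snai2 were Gm49498 (0.58), Pinlyp (0.62) and Mc1r (0.7), and those of Snai1 were Slc39a14 (0.65), Sdc3 (0.74) and Trib3 (0.77). Twist1 was nearest to Smarca1, Zfp385a and Ank2 (0.6 to 0.67), and Twist2 to En1 (0.61) and Gm28438 (0.63). Ovol1 was nearest to Chek2, Incenp and Spdl1 (0.47 to 0.55), and Ovol2 to Rtkn, Tnrc18 and Dennd2c (0.33 to 0.44). The median RMS over all genes was 1.21 to 1.79 for these 10 genes.

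The targets of these factors were read from lists of pathway genes. Of 26 epithelial targets, which encode junction proteins, epithelial keratins and their like, 11 rose and 1 fell in B1/P/Rbf when set against B1/P, and 12 were higher and 1 lower in P/Rbf. Of all genes, 7.36% rose and 9.29% fell in B1/P/Rbf, and 8.43% and 10.8% did in P/Rbf. The list's median log2 fold change was 1.01 and 1.14, against -0.06 and -0.05 over all genes. In B1/P/Rbf the genes with the smallest adjusted p were Tjp3, a tight junction scaffold (97.9 against 19.5 CPM, log2 fold change 2.33, adjusted p = 0.000961), and St14, which encodes the protease matriptase (450 against 161 CPM, 1.48, adjusted p = 0.00159). In P/Rbf they were Tjp3 (108 CPM, 2.48, adjusted p = 0.000717) and Krt18 (2010 against 302 CPM, 2.74, adjusted p = 0.000952). The keratin 18 promoter also drives the transgene in these tumors. The 1 gene that was lower in both was Cldn1, which encodes claudin 1 (3.26 and 3.74 CPM against 34.5 CPM, adjusted p = 0.00783 and 0.00983).

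The upstream sequence of these targets was searched for the E-box that SNAI and ZEB proteins bind, read as CACCTG on either strand (CAGGTG on the other). RefSeq start sites on GRCm38.p6 were matched for 18 of the 26 targets and for 7 of the 10 genes. The 250 bases before a start held the E-box in at least 1 promoter of 12 of the 18 targets, or 66.7%, against 19.4% of 27025 genes. By promoter the share was 56.0% of the 25 promoters of the targets and 17.2% of 32851 promoters of all genes. Of the 7 matched EMT genes only Snai1 held it, and Twist1, Twist2, Zeb2, Prrx1, Ovol2 and Vim had none in this stretch. The list was drawn up from known targets of these factors, so the share is a description of the list, and a match is not a bound site. Cldn1, the target that was lower, had none. Snai2, Zeb1 and Ovol1 were not matched.

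The following stretches show the E-box in capitals, first in Snai1, at 126 bases before its start on chr2:167537945-167538194 (+), then in 4 epithelial targets. Tjp3 (chr10:81291582-81291831, -) and Muc1 (chr3:89228806-89229055, +) were called higher in both groups with T121, as was Cldn4 (chr5:134946935-134947184, -). Epcam (chr17:87635729-87635978, +) was called in P/Rbf and not in B1/P/Rbf. None of these 5 stretches overlaps an exon of the annotation, and each runs 5′ to 3′ on the strand of its gene up to the base before the start.
Snai1: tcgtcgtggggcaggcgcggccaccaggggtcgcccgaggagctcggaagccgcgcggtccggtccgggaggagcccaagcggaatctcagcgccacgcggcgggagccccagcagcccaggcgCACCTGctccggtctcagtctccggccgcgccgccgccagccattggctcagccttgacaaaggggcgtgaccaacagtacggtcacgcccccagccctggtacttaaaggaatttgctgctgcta
Tjp3: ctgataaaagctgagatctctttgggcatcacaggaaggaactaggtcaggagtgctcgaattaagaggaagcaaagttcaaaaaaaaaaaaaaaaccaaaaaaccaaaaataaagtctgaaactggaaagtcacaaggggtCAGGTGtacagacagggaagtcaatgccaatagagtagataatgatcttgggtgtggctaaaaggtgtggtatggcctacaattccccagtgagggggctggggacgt
Muc1: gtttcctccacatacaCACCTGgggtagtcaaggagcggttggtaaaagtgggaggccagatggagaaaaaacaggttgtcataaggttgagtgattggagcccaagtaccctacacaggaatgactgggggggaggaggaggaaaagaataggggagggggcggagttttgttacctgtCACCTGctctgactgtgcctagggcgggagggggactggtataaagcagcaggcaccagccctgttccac
Cldn4: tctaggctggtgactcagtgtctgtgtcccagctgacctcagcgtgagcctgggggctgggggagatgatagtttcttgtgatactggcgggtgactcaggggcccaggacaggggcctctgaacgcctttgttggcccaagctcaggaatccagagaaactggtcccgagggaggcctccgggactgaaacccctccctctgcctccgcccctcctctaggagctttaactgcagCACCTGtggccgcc
Epcam: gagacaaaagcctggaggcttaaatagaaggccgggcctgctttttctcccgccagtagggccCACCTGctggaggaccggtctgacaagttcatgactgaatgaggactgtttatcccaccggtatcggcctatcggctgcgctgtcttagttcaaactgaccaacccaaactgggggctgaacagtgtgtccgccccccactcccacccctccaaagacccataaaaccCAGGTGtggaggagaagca
The E-box lies at -108 from this start of Tjp3, at -234 and -70 in Muc1, at -14 in Cldn4 and at -187 and -19 in Epcam, counted from the start to the 5′ base of the match. Cldn4 was at 603 (B1/P/Rbf) and 385 CPM (P/Rbf) against 139 CPM in B1/P (log2 fold changes 2.12 and 1.47, adjusted p = 0.00909 and 0.0449). Muc1, which encodes mucin 1, was at 126 and 59.1 CPM against 9.62 CPM (3.7 and 2.62, adjusted p = 0.0112 and 0.0439). Epcam was at 768 and 1010 CPM against 485 CPM (0.66 and 1.06, adjusted p = 0.156 and 0.0266).

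Of 19 mesenchymal targets, 2 were lower and none higher in B1/P/Rbf when set against B1/P, and likewise in P/Rbf, near the share of all genes called lower (9.29% and 10.8%). The list medians were -1.09 and -0.79. Cdh2, which encodes N-cadherin, was at 0.97 (B1/P/Rbf) and 1.88 CPM (P/Rbf) against 38.4 ± 51 CPM (SD, n = 5) in B1/P (log2 fold changes -5.3 and -4.35, adjusted p = 0.0011 and 0.00262). The other call was Sparc in B1/P/Rbf (-1.43, adjusted p = 0.0316) and Fbn1, which encodes fibrillin 1, in P/Rbf (-1.7, adjusted p = 0.0136). Against normal glands the same list had 9 of 19 higher and none lower in B1/P, 6 higher and 3 lower in B1/P/Rbf, and 7 higher and 1 lower in P/Rbf. Of all genes, 16.8% were higher and 16.9% lower in B1/P, 17.1% and 20.0% in B1/P/Rbf, and 17.4% and 20.3% in P/Rbf. Tnc, which encodes tenascin C, was at 519 CPM in B1/P, 257 CPM in P/Rbf and 181 CPM in B1/P/Rbf against 9.69 CPM in normal glands (log2 fold changes 5.74, 4.73 and 4.22, adjusted p = 0.000231, 0.000626 and 0.00129).

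**Figure D4:**
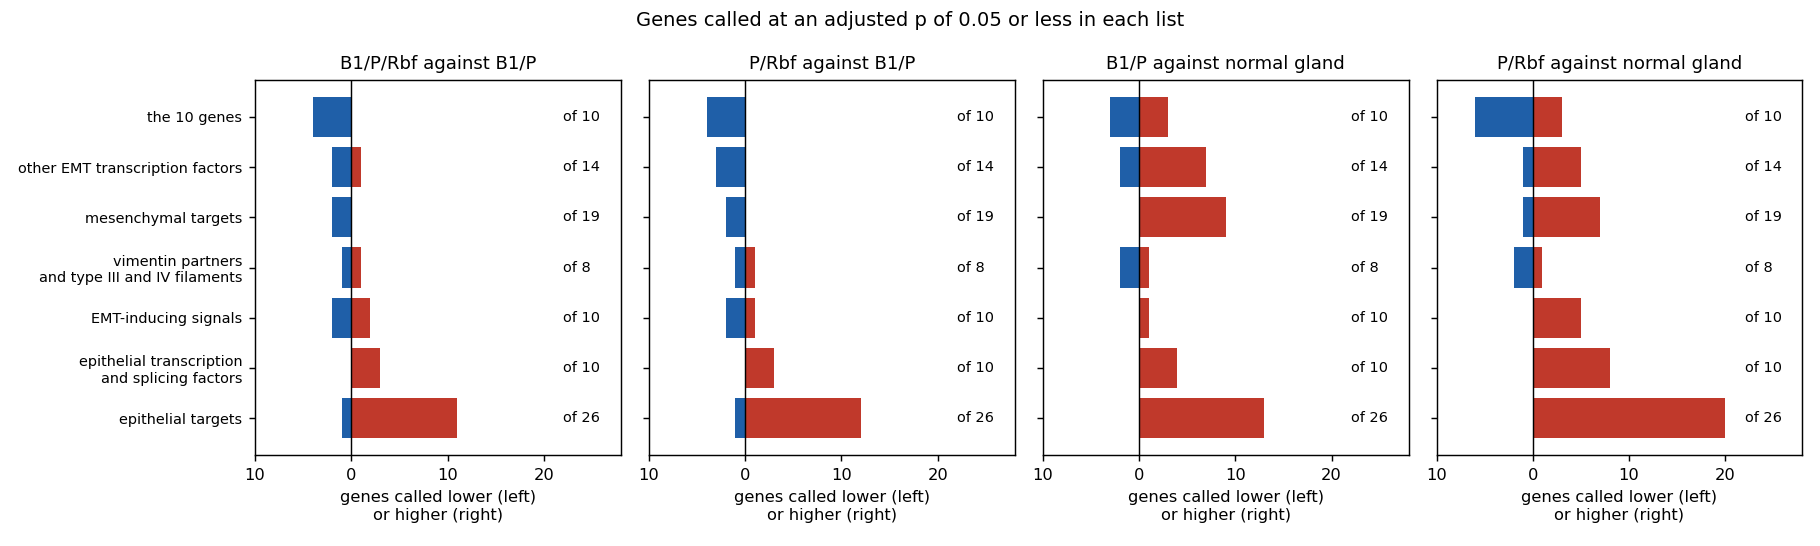
Number of genes called lower (blue, to the left) and higher (red, to the right) in each list, for 4 of the comparisons, with the number of genes tested at the right of each bar. Epithelial targets were called higher in all 4 panels (11 to 20 of 26), while the 10 EMT genes were called lower without a higher call only in the panels of tumors with T121 against B1/P.

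Of 14 other EMT transcription factors, 1 was higher and 2 lower in B1/P/Rbf when set against B1/P, beside 7.36% and 9.29% of all genes. In P/Rbf 3 were lower and none higher, beside 10.8% and 8.43%. Foxc1, a forkhead factor, was at 2.94 and 7.52 CPM against 50.2 CPM (log2 fold changes -4.09 and -2.74, adjusted p = 0.00261 and 0.0165). Tcf4, a basic helix-loop-helix partner, was higher in B1/P/Rbf (158 against 67.6 CPM, 1.22, adjusted p = 0.0103). Against normal glands 7 were higher and 2 lower in B1/P, beside 16.8% and 16.9% of all genes. In B1/P/Rbf 4 were higher and 2 lower, beside 17.1% and 20.0%, and in P/Rbf 5 were higher and 1 lower, beside 17.4% and 20.3%. Sox4 was higher in B1/P, at 261 against 47 CPM (log2 fold change 2.47, adjusted p = 0.000409). It was also called higher in P/Rbf, at 124 CPM (1.4, adjusted p = 0.0137), and its mean in B1/P/Rbf was 140 CPM.

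Of 10 epithelial transcription and splicing factors tested, 3 were called higher in B1/P/Rbf and 3 in P/Rbf than in B1/P, and none was called lower. Of all genes, 7.36% and 8.43% were higher and 9.29% and 10.8% lower. The list's median log2 fold change was 0.15 in B1/P/Rbf and 0.47 in P/Rbf, with 7 and 8 of the 10 above 0. The lowest values were those of Elf5, -3.12 and -2.35, which were not called (adjusted p = 0.124 and 0.211). Elf3 and Esrp2, an epithelial ETS factor and an epithelial splicing regulator, were called in both. Elf3 was at 218 and 213 CPM against 60.1 CPM (log2 fold changes 1.86 and 1.83, adjusted p = 0.00374 and 0.00412), and Esrp2 at 93.3 and 96 CPM against 38.4 CPM (1.28 and 1.32, adjusted p = 0.0225 and 0.0178). Against normal glands, Grhl2, a grainyhead factor of epithelia, and Esrp1 were higher in all 3 tumor groups, by 2.22 to 2.49 and 2.22 to 2.55 on the log2 scale, with adjusted p of 3.48e-06 or smaller.

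Filaments related to vimentin and signals that induce EMT were also listed. Of 8 filament and partner genes tested, Nefh was higher and Des, which encodes desmin, lower in both groups with T121 relative to B1/P, with Des at 4.61 and 5.71 CPM against 15.6 CPM (adjusted p = 0.0117 and 0.0274). Of 6 skeletal muscle markers, 3 were called lower in B1/P/Rbf and 4 in P/Rbf against B1/P, and none higher. They summed to 585 CPM in B1/P replicate 5 and to 2.04 to 10.1 CPM in the other B1/P tumors. The part of muscle in the difference of Des was not tested. Of 10 signal genes, 2 rose and 2 fell in B1/P/Rbf, and 1 was higher and 2 lower in P/Rbf. Beside these counts, 1 of 8 filament genes each way included, stand the shares of all genes, 7.36% higher and 9.29% lower in B1/P/Rbf and 8.43% and 10.8% in P/Rbf. Tgfb2, a TGF-beta ligand, was lower in both (4.09 and 4.89 against 25 CPM, log2 fold changes -2.61 and -2.35, adjusted p = 0.00261 and 0.0045), as was the receptor tyrosine kinase Axl (73.1 and 67.8 against 199 CPM, adjusted p = 0.0304 and 0.0199). Tgfb1 was higher in B1/P/Rbf (76.9 against 46.6 CPM, adjusted p = 0.0301) and the receptor gene Tgfbr1 in P/Rbf (284 against 93.3 CPM, adjusted p = 0.00755).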

How the data were processed

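The deposited values were expected counts per gene, which the authors made with RSEM from paired-end, strand-specific mRNA libraries. The submitters' processing notes list FastQC 0.11.5, Picard 1.119, cutadapt 1.18, RSEM 1.3.0 and DESeq2 1.28.1. The study's methods name a human reference, but all 55450 identifiers match mouse GENCODE release 21 (GRCm38). Whether counting used the strand is not given in the sources used here. Of the values 5.61% were not whole and were rounded.

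From these counts, edgeR 4.0.16 (R 4.3.3) was fitted over all 18 libraries with the group as the only term, TMM factors and filterByExpr with a minimum count of 10, which kept 19186 genes. The quasi-likelihood test with Benjamini-Hochberg adjustment over these genes called differences at 0.05. Standard errors were the fold change divided by the root of F, and 95% intervals used the t distribution. The script was tested on simulated data. Alternatives were DESeq2 1.42.0, limma 3.58.1 (voom), library sizes without TMM, other filters, a fit of the 2 groups compared, a term for 2 library sets, and leaving out each library. Single values were tested by exact permutation, and correlations over 10 tumors by permutation with 100000 resamples.

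The genes and gene lists were chosen with earlier results of these data known. Named beside the 10 genes were at most the 2 called genes per list, direction and comparison with the smallest adjusted p, and the 3 nearest profiles per gene. Genes with a group mean under 0.1 CPM were passed over, and examples with a printed promoter (Cldn4, Muc1, Epcam), Sox10 and the pericyte markers were chosen after their values were seen. Also outside this rule, Mrc1, Aif1, Lyz2, Dcn and Elf5 were named without a call, and Sox4 was given for both groups with T121 beside normal glands. Some genes that this rule would name are not reported here.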

Additional observations from a re-analysis of the deposited data

How the results depend on the processing

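Snai2, Twist1 and Vim were called lower in both groups with T121 relative to B1/P under every alternative that tested them. DESeq2 called 7 of the 10 genes in B1/P/Rbf against B1/P, adding Twist2, Zeb2 and Ovol2. In that comparison it called 4413 of all 19186 genes, against 3195 in the main fit. In B1/P/Rbf against P/Rbf it called 1 of the 10, Snai1, and 1023 of all genes. With a filter of log2 CPM of at least 6 in 6 samples only Vim was tested, and the number called was 1 in each group with T121 against B1/P or normal glands and 0 in B1/P against normal glands. A term for 2 library sets, described above, left 5 called in B1/P/Rbf against normal glands, without Twist1, Ovol1 and Ovol2. Of all genes it called 3879 there, against 7108 in the main fit. It also ended the calls of Zeb2 in P/Rbf against B1/P and of Twist2 in B1/P against normal glands. Twist2 in B1/P against normal glands also lost its call without TMM and with no filter, Ovol2 in B1/P/Rbf against normal glands with no filter and in the fit of the 2 groups, and that fit also ended the calls of Prrx1 in B1/P/Rbf against B1/P and Snai1 in P/Rbf against normal glands. Prrx1 gained a call in P/Rbf against B1/P with DESeq2, and in B1/P against normal glands with limma and in the fit of the 2 groups. The set term turned Snai2 (0.67) and Zeb1 (-0.5) in B1/P/Rbf against P/Rbf and Snai1 (-0.27) in B1/P/Rbf against normal glands. limma turned Ovol1 in B1/P/Rbf against B1/P (0.09). Without TMM the difference in fibroblast score, P/Rbf against B1/P, was -1.5 and passed (adjusted p = 0.0476), and the median of all genes against normal glands moved to 0.33 to 0.47 from 0.05 to 0.12. Among all genes, 54 were called between B1/P/Rbf and P/Rbf, against 1023 with DESeq2, 26 with limma, 1 in the fit of the 2 groups, 5 with the set term and 9 to 131 without 1 library. Against B1/P, 3195 were called in B1/P/Rbf and 3684 in P/Rbf, against 2039 and 1507 in the fit of the 2 groups, and the set term left 2008 in P/Rbf. The cause was not tested.

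Leaving out each library in turn, the number of the 10 genes called was 3 to 6 in B1/P/Rbf and 4 to 5 in P/Rbf against B1/P, 0 between these 2, and 7 to 8 in B1/P/Rbf, 5 to 7 in B1/P and 8 to 9 in P/Rbf against normal glands. Over all genes tested in these fits, 2315 to 3467 and 2763 to 3924 were called against B1/P and 9 to 131 between these 2. Against normal glands 4993 to 6930, 4320 to 6435 and 5157 to 7259 were, in the same order. Values that turned sign ranged from -0.39 to 0.36 for Ovol1 in B1/P/Rbf and, in P/Rbf, from -0.23 to 1.54 for Snai1 and from -1.25 to 0.06 for Twist2, all against B1/P. Between B1/P/Rbf and P/Rbf they ranged from -0.49 to 0.5 for Snai2, from -0.67 to 0.15 for Twist1 and from -0.52 to 0.09 for Vim. For Snai2 against normal glands they ranged from -0.04 to 0.18 in B1/P/Rbf and from -0.44 to 0.56 in P/Rbf. None of the turned values was called. Calls were gained in B1/P/Rbf against B1/P by Zeb2 without B1/P/Rbf replicate 1 or B1/P replicate 1 or 5 and by Ovol2 without B1/P/Rbf replicate 4 or B1/P replicate 2, in P/Rbf against B1/P by Prrx1 without B1/P replicate 1 and Zeb1 without P/Rbf replicate 4, and in B1/P against normal glands by Prrx1 without B1/P replicate 2. Over all alternatives, 32 values of single genes lost a call and 16 gained one, 15 turned sign and 843 did neither. No paired analysis was possible because each sample was a different mouse and the labels share no replicate numbers.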
